A study of Mus musculus with 9 samples.

Results

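Medium spiny neurons are the projection neurons of the striatum, and 9 genes that mark them were read here in 9 brain libraries of APP/PS1 mice. The genes were found in the deposited transcript table by their Entrez gene identifiers, and their transcripts were summed per gene, which gave 9 of the 18450 genes in that table. They are Drd1 and Tac1 of the direct pathway, Drd2, Adora2a, Penk and Gpr6 of the indirect pathway, and Ppp1r1b, Rgs9 and Pde10a of both pathways. All 9 had reads in every library and passed the filter on low counts.

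The study housed transgenic mice in 3 ways and sequenced messenger RNA from the brain stem together with the anterior part of the brain. The groups were 3 APP/PS1 mice exposed to stress, 3 APP/PS1 mice in an enriched environment and 3 APP/PS1 control mice in a standard environment. APP/PS1 mice carry transgenes for the amyloid precursor protein and presenilin and form amyloid plaques, and the controls carried them too, so no comparison with mice free of the transgenes was possible. The promoter of the transgenes, the age and the sex of the mice are not given in the sources used here. The mice were perfused with cold saline before dissection, and the labels give standard rearing as the treatment of every animal, so the group field was used. The title of each sample holds an animal code, and the replicates were taken as separate animals. The code starts with C in the 3 stress mice and control replicate 1, and with D in the 3 enriched mice and control replicates 2 and 3, and what the letter means is not given. Between stress and enriched mice the letter and the group cannot be told apart.

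In the striatum, dopamine acts on the 2 output pathways in opposite ways. Neurons of the direct pathway carry the dopamine receptor encoded by Drd1, which raises cyclic AMP, and release substance P, which is made from the Tac1 product. Neurons of the indirect pathway carry the receptor encoded by Drd2, which lowers cyclic AMP, together with the adenosine receptor encoded by Adora2a, and release enkephalin, which is made from the Penk product. Gpr6 encodes an orphan receptor of the indirect pathway that raises cyclic AMP. Neurons of both pathways hold Ppp1r1b, a phosphoprotein that turns into an inhibitor of protein phosphatase when phosphorylated by protein kinase A. They also hold Rgs9, which shortens signalling through inhibitory G proteins, and Pde10a, a phosphodiesterase that degrades cyclic AMP and cyclic GMP. Several of these genes are also used outside the striatum: Tac1 and Penk in the brain stem, Drd2 in midbrain dopamine neurons, Penk in the olfactory bulb, and Ppp1r1b in Purkinje cells of the cerebellum and in the choroid plexus.

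The promoters of 4 members are shown because these 4 form the pairs of members with the highest correlation across the libraries, Drd1 with Gpr6 and Tac1 with Drd2. Each line gives the bases directly before the annotated gene start in RefSeq on GRCm38.p6, 5′ to 3′ on the gene's own strand. They lie at chr13:54055659-54055908 on the minus strand for Drd1, chr10:41072291-41072540 on the minus strand for Gpr6, chr6:7554811-7555060 on the plus strand for Tac1 and chr9:49340153-49340359 on the plus strand for Drd2. Capitals mark every match, on either strand, to TGACG, the half-site of the cyclic AMP response element.
Drd1: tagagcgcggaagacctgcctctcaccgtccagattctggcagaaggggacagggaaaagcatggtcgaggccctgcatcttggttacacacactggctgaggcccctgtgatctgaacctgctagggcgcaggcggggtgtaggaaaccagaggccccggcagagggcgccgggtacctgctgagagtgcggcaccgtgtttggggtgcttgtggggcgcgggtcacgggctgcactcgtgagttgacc
Gpr6: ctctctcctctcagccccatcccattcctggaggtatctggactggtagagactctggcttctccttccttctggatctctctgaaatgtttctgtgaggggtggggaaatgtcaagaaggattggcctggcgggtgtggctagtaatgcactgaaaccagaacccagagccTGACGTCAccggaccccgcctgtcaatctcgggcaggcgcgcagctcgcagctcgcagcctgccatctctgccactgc
Tac1: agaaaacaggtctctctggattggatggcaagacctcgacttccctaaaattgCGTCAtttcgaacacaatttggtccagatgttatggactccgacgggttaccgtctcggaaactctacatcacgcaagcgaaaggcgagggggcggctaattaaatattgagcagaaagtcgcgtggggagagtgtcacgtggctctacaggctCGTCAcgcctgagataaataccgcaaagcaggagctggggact
Drd2: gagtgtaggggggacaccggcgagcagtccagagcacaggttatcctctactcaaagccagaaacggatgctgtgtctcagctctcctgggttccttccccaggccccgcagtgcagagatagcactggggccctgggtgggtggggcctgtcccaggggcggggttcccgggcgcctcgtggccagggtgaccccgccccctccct
The Gpr6 window held 1 full cyclic AMP response element, TGACGTCA, which starts 78 bases before the gene and consists of overlapping half-sites on the opposite strands. The Tac1 window held 2 separate half-sites on the minus strand, read here as CGTCA, which start 197 and 43 bases before the gene. No half-site was found in the Drd1 and Drd2 windows. Of 32851 RefSeq promoter windows of mouse genes, 1.55% held the full element and 17.8% held the half-site. Searched on both strands, TATAAA (the TATA box) was in none of the 4 windows and in 12.4% of all windows, and TGANTCA (the AP-1 site) was in none of the 4 and in 6.75% of all. GGGCGG (the GC box) matched 2 times in the Drd2 window and 1 time in the Tac1 window, against 32.7% of all windows with a match, and CANNTG (the E-box) matched 2 times in the Tac1 window, against 66.2%. The share of G and C was 64.0% for Drd1, 58.4% for Gpr6, 51.2% for Tac1 and 67.6% for Drd2, with a median of 52.4% over all windows. In each pair, then, the half-site was in the window of one gene and not in that of the other. The windows found for Rgs9, which overlaps a second annotated gene, and Pde10a, which lies inside the gene, are not shown, and Adora2a, Ppp1r1b and Penk had none in the table.

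Libraries held 15851833 to 17213008 estimated counts, and values are given as CPM (a count scaled to a fixed library total with TMM factors), where 1 CPM stood for 15.9 to 16.8 reads. Control replicate 2 stood apart for these genes: it was the highest of the 9 libraries in CPM for 8 of the 9 members, all but Pde10a, and the only library in which all 9 lay above their own mean. In the other 8 libraries 2 to 5 members lay above their mean. The share of all genes that were highest in control replicate 2 is not given here. Other genes of the same neurons were not uniform in that library. The summed CPM of 5 other direct pathway genes was the highest there (97.4), and that of 2 other indirect pathway genes the lowest (7.19). For 15 further identity genes of spiny neurons it was 713, in a range of 679 to 946. Each library mixes brain regions, and marker genes of these regions differed between animals of one group as well. The summed CPM of 11 brain stem genes ran from 21.5 to 148 in stress, from 25.1 to 78.1 in enriched and from 27.8 to 124 in control libraries, with Hoxa2 at 0 in stress replicate 3. The sum of 6 cortex genes ran from 188 to 278 in stress, from 216 to 265 in enriched and from 171 in control replicate 2 to 261 in control replicate 1. The sum of 5 olfactory bulb genes ran from 76.8 to 249 in stress, from 198 to 354 in enriched and from 22.7 in control replicate 2 to 243 in control replicate 3. The part of the dissection in the results below was not tested, and in such bulk tissue fewer cells of a type and less RNA per cell cannot be told apart.

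Levels can be compared between genes in TPM, a transcript abundance that the authors scaled for length as well as for library total. Penk, the enkephalin precursor, was the most abundant of the 9, with 333, 327 and 294 TPM in stress libraries, 443, 271 and 294 TPM in enriched libraries and 345, 447.5 and 300.2 TPM in control libraries. Ppp1r1b followed with 166, 231 and 325 TPM in stress, 206, 269 and 201 TPM in enriched and 284, 349 and 298 TPM in control libraries. Both stood far above the dopamine receptor genes Drd1 and Drd2 in these libraries of mixed tissue, which do not give levels within a cell type. Over all 9 libraries the mean TPM was 339 for Penk, 259 for Ppp1r1b, 26.6 for Tac1, 10.02 for Pde10a, 8.60 for Rgs9, 6.86 for Drd2, 3.86 for Adora2a, 1.97 for Drd1 and 1.16 for Gpr6. In that order, the ranges of neighbours overlapped for every pair except Ppp1r1b and Tac1, and each pair kept the order in 7 to 9 of the 9 libraries.

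**Figure D1:**
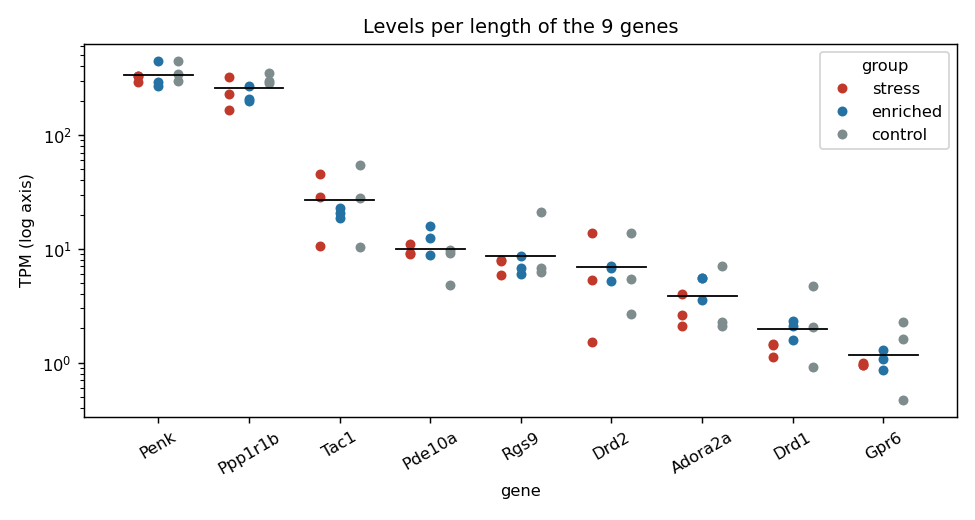
Level of each of the 9 genes in TPM on a log axis, with 1 point for each library, coloured by housing group, and a line at the mean of the 9 libraries. Penk and Ppp1r1b lie above 150 TPM in every library, while Drd1 and Gpr6 stay below 5 TPM.

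The ratio of one member to another was not fixed between animals. The ratio of Ppp1r1b to Drd1 in TPM was lowest in control replicate 2 (74.2) and highest in control replicate 1 (309), with a median of 146 over the 9 libraries. The ratio of Drd1 to Drd2 was 0.0818, 0.275 and 0.947 in stress, 0.223, 0.404 and 0.337 in enriched and 0.168, 0.342 and 0.759 in control libraries. The ratio of Tac1 to Penk, the precursors of the peptides of the direct and the indirect pathway, was 0.137, 0.0869 and 0.0362 in stress, 0.0467, 0.0683 and 0.0772 in enriched and 0.0803, 0.123 and 0.0344 in control libraries. The widest ranges of both ratios were inside the stress group, and the groups overlapped.

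Among the direct pathway genes, Drd1 (gene 13488, chr13:54051183-54055658) had few reads, between 31 and 144 per library. It was at 1.88, 2.46 and 2.75 CPM in stress, 2.82, 3.45 and 3.83 CPM in enriched and 1.99, 8.70 and 3.57 CPM in control libraries. All stress libraries were below all enriched libraries, while the controls ran across both groups. Tac1 (gene 21333, chr6:7555061-7562978) was at 18.0, 11.0 and 4.76 CPM in stress, 8.51, 7.25 and 8.91 CPM in enriched and 14.1, 24.1 and 4.3 CPM in control libraries. The enriched libraries lay close together, and the stress and control libraries each spread over more than the enriched range on both sides.

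Among the indirect pathway genes, Drd2 (gene 13489, chr9:49340360-49408177) had the widest spread of the 9. It was at 17.9, 6.77 and 2.2 CPM in stress, 9.76, 6.60 and 8.65 CPM in enriched and 9.11, 19.7 and 3.63 CPM in control libraries, and replicate 3 was the lowest in stress and in control. Adora2a (gene 11540, chr10:75316877-75334792) was at 2.85, 4.43 and 2.75 CPM in stress, 6.59, 3.92 and 6.08 CPM in enriched and 3.08, 8.57 and 2.72 CPM in control libraries. Here 2 of 3 enriched libraries lay above all stress libraries, and control replicate 2 was above both groups. Penk (gene 18619, chr4:4133536-4138815) was at 178, 172 and 178 CPM in stress, 249, 142 and 154 CPM in enriched and 237, 266 and 168 CPM in control libraries. The stress libraries were nearly equal and lay inside the range of the other groups. Gpr6 (gene 140741, chr10:41069977-41072290) was at 0.789, 0.738 and 0.855 CPM in stress, 0.719, 0.832 and 1.0 CPM in enriched and 0.482, 1.99 and 1.33 CPM in control libraries, which rest on 8 to 33 reads each. With so few reads, the lowest and the highest value were both in the control group.

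Among the genes of both pathways, Ppp1r1b (gene 19049, chr11:98348406-98357796) was at 126, 174 and 278 CPM in stress, 173, 200.1 and 153 CPM in enriched and 276, 307 and 239.8 CPM in control libraries. All enriched libraries were below all controls, and stress replicate 3 lay within the control range. Rgs9 (gene 19739, chr11:109225348-109298181) was at 13.1, 12.7 and 8.55 CPM in stress, 11.5, 11.2 and 12.7 CPM in enriched and 11.2, 29.1 and 11.5 CPM in control libraries. Apart from control replicate 2, all libraries lay between 8.55 and 13.1 CPM. Pde10a (gene 23984, chr17:8525187-8986648) was at 35.2, 42.3 and 39.5 CPM in stress, 36.2, 60.1 and 46.8 CPM in enriched and 24.4, 42.3 and 37.2 CPM in control libraries. It was the member whose highest library was an enriched one.

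**Figure D2:**
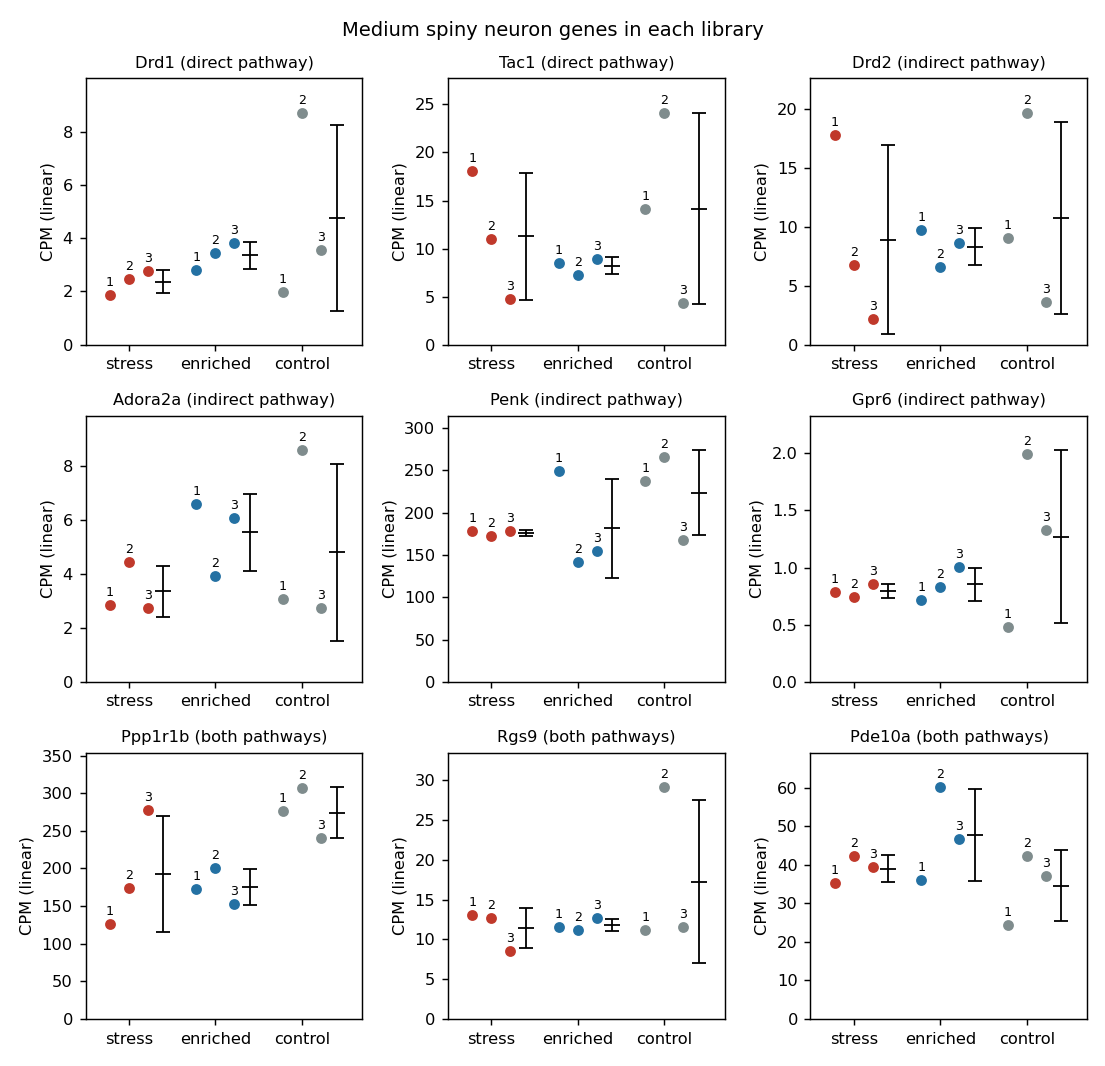
CPM of each member in the 9 libraries, on a linear axis from 0, with the replicate number over each point and the group mean and SD (n = 3) at its right. Control replicate 2 is the top point in every panel except that of Pde10a.

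The stress group was first set against the control group. By edgeR's quasi-likelihood test, adjusted by the method of Benjamini and Hochberg over 14694 genes, no member passed an adjusted p of 0.05, and none was under an unadjusted p of 0.05, against 0% and 7.98% of all genes tested (1172 genes at an unadjusted p under 0.05, and 7 genes called by DESeq2). The log2 fold change was below 0 for 8 of the 9 members, against 47.7% of all genes, and the median over the members was -0.51, against 0.02 over all genes. No member had stress and control libraries free of overlap, which 9.84% of all genes had. Drd1 had the largest value of these, at 2.36 ± 0.441 CPM in stress mice and 4.75 ± 3.51 CPM in control mice (SD, n = 3 each), a log2 fold change of -1.01 ± 0.46 (SE; 95% interval -2.03 to 0.02; edgeR adjusted p = 0.546). Without control replicate 2 it was -0.23. Ppp1r1b averaged 193 ± 77.4 CPM in stress mice and 274 ± 33.4 CPM in controls, with a log2 fold change of -0.51 ± 0.25 (95% interval -1.06 to 0.04; edgeR adjusted p = 0.546). The value without control replicate 2 was -0.42. Rgs9 (-0.59 ± 0.34), Gpr6 (-0.67 ± 0.45), Adora2a (-0.52 ± 0.43) and Penk (-0.35 ± 0.22) had edgeR adjusted p-values between 0.546 and 0.608. Tac1 (-0.33 ± 0.56) and Drd2 (-0.27 ± 0.69) had the largest errors, and Pde10a was the member above 0 (0.17 ± 0.22). Without control replicate 2, Tac1, Drd2, Adora2a and Rgs9 were at 0.29, 0.49, 0.20 and 0.01, so the count below 0 rests in part on that library. With the letter of the animal code in the fit, Drd1, Adora2a, Gpr6 and Rgs9 were at 0.25, 0.12, 0.71 and 0.035. That fit in effect sets the stress mice against control replicate 1 alone, the control that shares their letter. With the first principal component of the region marker lists in the fit, Tac1 and Drd2 were at 0.36 and 0.45. That component was higher in every stress library (-0.40 to 1.03) than in every control library (-3.58 to -0.55). It therefore cannot be fully separated from the group.

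The enriched group was then set against the same controls, so these values share control animals with those of the stress group. No member passed an adjusted p of 0.05 in edgeR's test (0% of all genes; 40 genes were called by DESeq2), and 1 member, Ppp1r1b, was under an unadjusted p of 0.05, against 20.4% of all genes in either direction. The 0% over all genes depends on single libraries, with 1586 genes called without control replicate 3 and 33 without enriched replicate 2, while no member was called in either case. Ppp1r1b was at 175 ± 23.5 CPM in enriched and 274 ± 33.4 CPM in control mice (SD, n = 3 each), a log2 fold change of -0.64 ± 0.25 (95% interval -1.19 to -0.10; edgeR adjusted p = 0.236). It was also the single member whose enriched and control libraries did not overlap, as was the case, in either direction, for 26.1% of all genes. This value moved little without control replicate 2 (-0.56).

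Values of other tissues stood beside the Ppp1r1b difference. All 9 choroid plexus genes had a log2 fold change below 0 in enriched against control mice, and their summed CPM was 58.5, 2190 and 44.2 in enriched and 3281, 3111 and 3809 in control libraries, with Folr1 at 0 in enriched replicate 3. In stress libraries that sum was 373, 1547 and 1480. Pcp2, a Purkinje cell gene of the cerebellum list that was picked after its values were seen, was at 370, 363 and 365 CPM in enriched and 653, 599 and 503 CPM in control libraries, and at 232, 356 and 761 CPM in stress libraries. Its order over the libraries was close to that of Ppp1r1b, including the high stress replicate 3, with a Pearson r of 0.94 and a Spearman rho of 0.82 over the 9 libraries, given as a description. The cerebellum list as a whole did not share this difference: the log2 fold change of Pcp2 in enriched against control mice was -0.68, those of the other 5 genes (Gabra6, Neurod1, Fat2, Cbln3 and Car8) lay between -0.14 and 0.17, and the median of the 6 was -0.04. The summed CPM of the 6 genes overlapped, at 2238 to 2963 in enriched and 2507 to 3228 in control libraries, and none was at 0 in any library. Over the 9 libraries, Ppp1r1b had r = 0.65 (rho = 0.70) with the mean log2 CPM of the 6 cerebellum genes, Pcp2 among them. With that of the 9 choroid plexus genes, r was 0.66 (rho = 0.68). The part of either tissue in the Ppp1r1b values was not tested.

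The other 8 members gave no smaller p-value for enriched against control mice. Pde10a was at 47.7 ± 11.99 CPM in enriched and 34.6 ± 9.25 CPM in control mice, with a log2 fold change of 0.46 ± 0.22 (95% interval -0.04 to 0.96; edgeR adjusted p = 0.256). Drd1 was at 3.36 ± 0.510 CPM in enriched and 4.75 ± 3.51 CPM in control mice (-0.50 ± 0.45), and turned to 0.27 without control replicate 2. Tac1, at 8.22 ± 0.862 CPM in enriched and 14.2 ± 9.90 CPM in control mice, had a log2 fold change of -0.78 ± 0.57, and -0.16 without that library. With the region component in the fit, Drd1, Tac1, Drd2 and Rgs9 turned to 0.28, 0.46, 0.97 and 0.27. That component was 2.73, -0.69 and 3.0 in enriched and -1.51, -3.58 and -0.55 in control libraries, so it ran partly with the group. The indirect pathway receptors went to both sides of 0, with Adora2a at 0.21 ± 0.43 (0.93 without control replicate 2), Drd2 at -0.37 ± 0.69 (0.39 without it) and Gpr6 at -0.57 ± 0.45 (-0.09 without it). Penk was at -0.30 ± 0.22 (-0.16 without it) and Rgs9 at -0.55 ± 0.34 (0.06 without it). In all, 7 of 9 members were below 0, against 48.3% of all genes, with a median of -0.50 against 0.02.

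Stress against enriched mice is the comparison that does not use the controls except for the shared estimate of spread. Here 6 of 9 members were below 0, against 48.1% of all genes, with a median log2 fold change of -0.05 against 0.01 over all genes. No member passed an adjusted p of 0.05 or an unadjusted p of 0.05 in edgeR's test, against 0% and 2.64% of all genes (388 genes at an unadjusted p under 0.05, and 0 called by DESeq2). Drd1 was the member whose libraries did not overlap, all 3 stress libraries being lower, while 10.5% of all genes had no overlap in either direction. Its log2 fold change was -0.51 ± 0.46 (95% interval -1.54 to 0.53; edgeR adjusted p = 0.999). Adora2a, at 3.34 ± 0.942 CPM in stress and 5.53 ± 1.42 CPM in enriched mice, had a log2 fold change of -0.72 ± 0.43 (95% interval -1.69 to 0.24; edgeR adjusted p = 0.999). Pde10a was at -0.29 ± 0.22 and Tac1 at 0.46 ± 0.57, and the other 5 members lay between -0.10 and 0.14. With the letter of the animal code in the fit, which varies within the controls alone, Drd1, Adora2a and Pde10a turned to 1.11, 0.15 and 0.42. These values rest on the difference between control replicate 1 and control replicates 2 and 3, so they depend on 1 control animal with the letter C. The test of any difference among the 3 groups called no member either, with 0% of all genes called and 9.79% at an unadjusted p under 0.05, and its smallest p among the members was that of Ppp1r1b (edgeR adjusted p = 0.458).

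**Figure D3:**
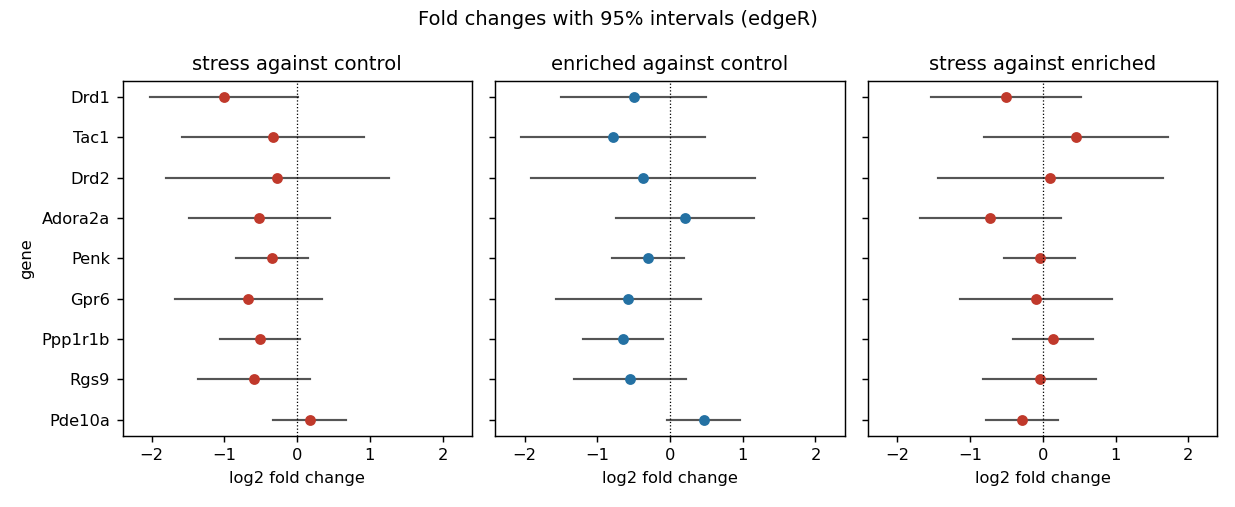
Log2 fold change of each member in the 3 comparisons, with the 95% interval of edgeR's quasi-likelihood fit. The interval of Ppp1r1b in enriched against control mice, from -1.19 to -0.10, is the one that does not cross 0.

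Direct and indirect pathway members were set against each other by group. When each gene's log2 CPM was centred on its mean over the 9 libraries, the mean of the 2 direct members was -0.20 ± 0.36 in stress, -0.08 ± 0.13 in enriched and 0.28 ± 0.97 in control mice (SD, n = 3 each). The mean of the 4 indirect members was -0.22 ± 0.37 in stress, 0.06 ± 0.25 in enriched and 0.16 ± 0.71 in control mice. The 3 genes of both pathways were at -0.12 ± 0.13 in stress, -0.03 ± 0.15 in enriched and 0.16 ± 0.41 in control mice. The difference, direct minus indirect, was 0.02 ± 0.03 in stress, -0.14 ± 0.26 in enriched and 0.12 ± 0.28 in control mice, so the group means differed by less than the SD within the enriched or control group. The 2 direct members did not vary together, so their mean does not track a shared level. Drd1 and Tac1 had a Pearson r of 0.18 and a rho of -0.18 over the 9 libraries, and an r of -0.74 without control replicate 2. Pairs of indirect members had an r between 0.09 and 0.55, and between -0.63 and 0.34 without control replicate 2.

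**Figure D4:**
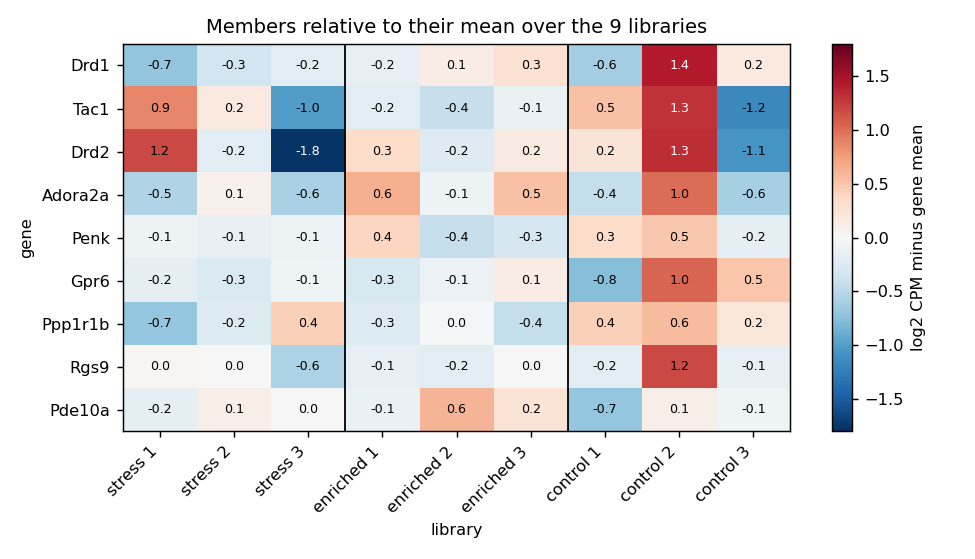
Log2 CPM of each member minus its mean over the 9 libraries, with genes ordered by pathway and libraries by group. Control replicate 2 is above the mean for all 9 genes, and Tac1 and Drd2 are both lowest in stress replicate 3 and control replicate 3.

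Across the 9 libraries the members formed no single block. Of the 36 pairs of members, 6 had a Pearson r of log2 CPM above 0.7 and 7 had an r below 0, and the median r of 0.42 was -0.02 without control replicate 2. P-values came from two-sided exact permutation of the libraries, adjusted by Benjamini-Hochberg over the 36 pairs, and 2 pairs were under 0.05. The matching shares over pairs of all tested genes are not given here, so these counts cannot be called particular to the members. Tac1 and Drd2, a direct and an indirect pathway gene, had r = 0.92 (exact permutation p = 0.00107, adjusted p = 0.0343) and rho = 0.87 (exact permutation p = 0.00451, adjusted p = 0.162). Their r was 0.88 without control replicates 2 and 3, the farthest from the Tac1 median, and 0.96 after removal of group means. For Drd2 the farthest were stress replicate 3 and control replicate 3, and the r without these is not given here. Drd1 and Gpr6, again a direct and an indirect pathway gene, had r = 0.89 (exact permutation p = 0.0019, adjusted p = 0.0343) and rho = 0.78 (exact permutation p = 0.0172, adjusted p = 0.302). Their r was 0.86 without control replicate 2 and stress replicate 1, the farthest from the Drd1 median. It was 0.73 without control replicate 2 alone, and 0.91 after removal of group means. For Gpr6 the farthest were control replicates 2 and 1, and the r without these is not given here. For neither pair did the rank correlation pass the adjustment. The dopamine receptors of the opposite pathways, Drd1 and Drd2, had r = 0.22 (exact permutation p = 0.565, adjusted p = 0.790) and rho = -0.02 (exact permutation p = 0.982, adjusted p = 1.0). Drd1 and Rgs9 had r = 0.77 (exact permutation p = 0.0616, adjusted p = 0.286) and rho = 0.20 (exact permutation p = 0.613, adjusted p = 0.850), and their r of 0.19 without control replicate 2 and stress replicate 1 shows that it rests on those libraries.

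Marker lists of other cells moved with some members. Of the 171 pairs of a member with 1 of 19 lists, chosen as the highest after their values were seen, Tac1 with 5 oligodendrocyte genes had r = 0.94 and rho = 0.92, and Drd2 with the same genes had r = 0.91 and rho = 0.87. The summed CPM of these myelin genes was 4591, 3005 and 1722 in stress, 2708, 2335 and 2391 in enriched and 3018, 3637 and 1913 in control libraries, and none of the 5 was at 0 in any library. Like Tac1 and Drd2, it was lowest in replicate 3 of stress and of control. With the 11 brain stem genes, whose sums were 148, 79.5 and 21.5 CPM in stress, 78.1, 64.6 and 25.1 CPM in enriched and 117, 124 and 27.8 CPM in control libraries, r was 0.86 (rho = 0.85) for Tac1 and 0.78 (rho = 0.80) for Drd2. The sum of 5 genes of midbrain dopamine neurons, cells that also use Drd2, was 182, 107 and 49.9 CPM in stress, 160, 74.9 and 130 CPM in enriched and 86.4, 73.1 and 70.4 CPM in control libraries. The r of Drd2 with these 5 genes was 0.62 (rho = 0.48), and 0.91 without control replicate 2. Other pairs ran in opposite directions, and the lowest r were likewise picked after their values were seen. Rgs9 with 6 cortex genes had r = -0.88 (rho = -0.83), and Ppp1r1b with the 5 midbrain dopamine genes had r = -0.87 (rho = -0.92). Ppp1r1b with 2 other indirect pathway genes had r = -0.86 (rho = -0.90). The part of these tissues in the values of Tac1, Drd2, Rgs9 and Ppp1r1b was not tested.

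**Figure D5:**
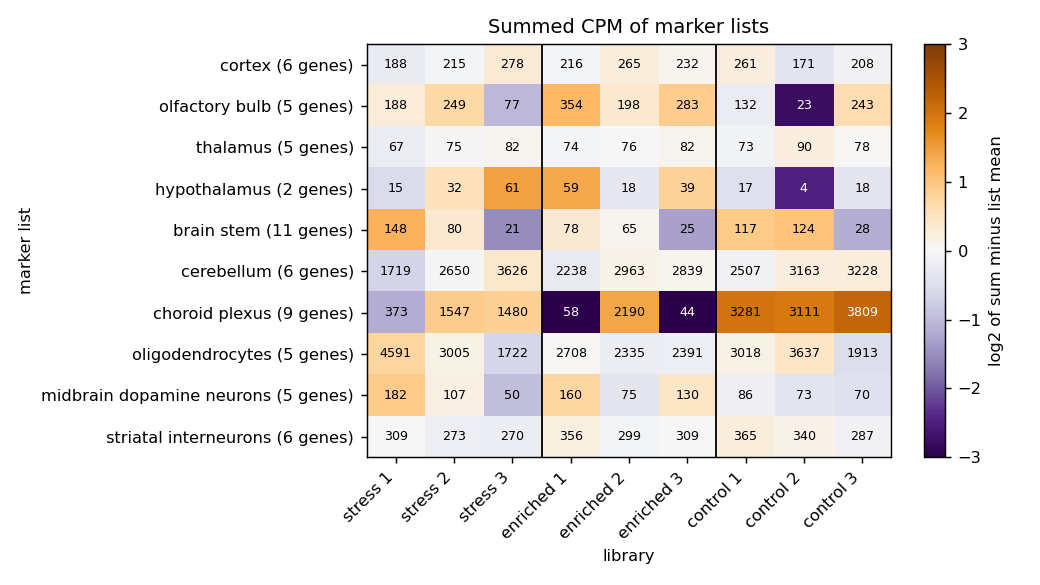
Summed CPM of marker lists of brain regions and cell types (rows) in the 9 libraries (columns), printed in each cell and coloured by the log2 of the sum minus the mean of that list over the libraries. The choroid plexus sum of every control library is 3111 CPM or more, against 44.2 and 58.5 CPM in the lowest enriched libraries.

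The genes most like the 9 members were found among the other tested genes by their Pearson r with the mean of the centred member values over the 9 libraries. The closest were Cfap65 (r = 0.91), Llgl1 (0.90) and Lrrc10b (0.89), followed by Megf6, Fndc9, Hes1, Adcy5, Ttc34, Abca2 and Wnt7b, with r between 0.84 and 0.87. Without control replicate 2 the r of Lrrc10b was 0.39 and that of Adcy5 was 0.93. Adcy5, the main adenylyl cyclase of the striatum, belonged to the list of dopamine and cyclic AMP signalling and was also the closest match of Drd2 (r = 0.96). Its level was 125, 105 and 88.2 CPM in stress, 117, 114 and 120 CPM in enriched and 112, 144 and 94.8 CPM in control libraries, a narrower range than that of Drd2. The closest match of each other member had an r between 0.86 and 0.99: Ddx39b for Drd1, Cdk18 for Tac1, Bdnf for Adora2a, Tmem216 for Penk, Mab21l1 for Gpr6, Pkp3 for Ppp1r1b, Cfap65 for Rgs9 and Zfp128 for Pde10a. These were picked as the highest r of many genes, which raises them, and they are given as a description.

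The transcripts behind the gene sums differed in how well they could be read. Rgs9 has a long coding form (2025 bases of coding sequence), known as the striatal one, and a short form (1452 bases) known from the retina. The long form had 71.3, 82.7 and 44.3 estimated reads in stress, 52.95, 79.7 and 39.5 in enriched and 62.0, 326 and 113 in control libraries. It made up 67.6% of the Rgs9 reads in control replicate 2, the highest share, against a median of 33.5% over the 9 libraries. The short form had 104, 98.2 and 39.4 estimated reads in stress, 110, 90.2 and 91.7 in enriched and 63.4, 77.8 and 77.5 in control libraries, with a median share of 45.4%. A further Rgs9 transcript had 0 estimated reads in control replicate 3 and its most, 78.4, in control replicate 2. Most of the excess of control replicate 2 was thus assigned to the long form, though this split of reads between forms is an estimate. For Drd2, the transcript that encodes the long receptor form (1332 coding bases) held 39.3% to 92.9% of the reads, with a median of 70.7%. Tac1 divided between a longer (390 coding bases, median 45.3%) and a shorter form (345 coding bases, median 53.2%), while 1 Penk transcript held 97.7% to 99.0% and 1 Ppp1r1b transcript held 68.1% to 77.7% of their genes' reads. All Drd1 reads fell on one transcript in 6 libraries and on the other in 3, so the Drd1 transcripts were not read separately. Rows were present for 7 of 11 annotated coding transcripts of Pde10a, 4 of 5 of Adora2a and all of the other members, so the sums of Pde10a and Adora2a are over part of their transcripts.

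Other genes of the same neurons were read from lists. None of the tested genes of these lists passed an adjusted p of 0.05 in any of the 3 comparisons. The genes named below were picked for the smallest p of their list in the test among the 3 groups, which favours separated libraries. Of all genes, 9.84% had no overlap between stress and control libraries and 26.1% had none between enriched and control libraries. In enriched against control mice, 3 of 5 other direct pathway genes, neither of the other indirect pathway genes, 8 of 15 further identity genes of spiny neurons and 5 of 14 genes of dopamine and cyclic AMP signalling were below 0, against 48.3% of all genes. Arpp21, a cyclic AMP-regulated phosphoprotein of the identity list, was at 139 ± 15.4 CPM in stress, 162 ± 19.6 CPM in enriched and 109 ± 23.8 CPM in control mice (SD, n = 3 each). Its enriched libraries lay above all controls, with a log2 fold change of 0.58 ± 0.16 (edgeR adjusted p = 0.236), on the other side of 0 from that of Ppp1r1b. Chrm4, a muscarinic receptor of the direct pathway, was at 15.6 ± 0.899 CPM in stress, 22.9 ± 4.41 CPM in enriched and 14.3 ± 5.0 CPM in control mice (enriched against control 0.68 ± 0.24, edgeR adjusted p = 0.236). Control replicate 2, the top library for Drd1, was the lowest of the 9 for Chrm4 at 9.24 CPM. Syndig1l, of the identity list, was lower in all stress libraries than in all controls (9.94 ± 1.98 CPM in stress and 14.9 ± 3.12 CPM in control mice; log2 fold change -0.58 ± 0.22, edgeR adjusted p = 0.546). Cdk5r1, the activator of a kinase that phosphorylates the Ppp1r1b product, was at 188 ± 4.38 CPM in stress, 215 ± 10.2 CPM in enriched and 166 ± 31.0 CPM in control mice.

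Receptors for the peptides made from Penk and Tac1 were read in the same way, and none passed the adjusted threshold. The tested receptors named were again picked for the smallest p of their list. The share of all genes without overlap was 9.84% for stress against control, 26.1% for enriched against control and 10.5% for stress against enriched. Oprd1, the delta opioid receptor for enkephalin, was at 6.92, 6.22 and 4.34 CPM in stress, 9.40, 7.79 and 8.03 CPM in enriched and 4.76, 2.84 and 4.90 CPM in control libraries. All enriched libraries were above all others, with a log2 fold change of 1.01 ± 0.25 against control (edgeR adjusted p = 0.236) and control replicate 2 again the lowest. Tacr1, the receptor for substance P, was at 7.13 ± 4.75 CPM in stress, 9.28 ± 5.75 CPM in enriched and 5.48 ± 1.01 CPM in control mice (enriched against control 0.76 ± 0.58, edgeR adjusted p = 0.426). Oprk1, the kappa opioid receptor, was at 3.38 ± 1.76 CPM in stress, 2.90 ± 0.840 CPM in enriched and 2.5 ± 0.270 CPM in control mice. Oprm1, the mu opioid receptor, and Drd3 had too few reads to be tested. Of the other dopamine and adenosine receptors, Drd4 was below all controls in the 3 stress libraries (0.631 ± 0.0352 CPM in stress and 1.19 ± 0.388 CPM in control mice; log2 fold change -0.90 ± 0.48, edgeR adjusted p = 0.546). Adora1, the adenosine receptor that lowers cyclic AMP, was below all controls in the 3 enriched libraries (264 ± 13.9 CPM in enriched and 301 ± 11.9 CPM in control mice; -0.19 ± 0.14, edgeR adjusted p = 0.412).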

How the data were processed

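Libraries were made from oligo(dT)-selected RNA by random priming, per the labels' protocols, which describe no strand marking and no molecular identifiers. RSEM 1.2.12, Bowtie2 2.2.5 and HISAT2 2.0.4 and the build GRCm38.p6 are named, without steps, in the notes on processing by the submitters. The authors deposited, for 65535 transcript rows, an estimated count (56.5% of values were not whole numbers), a TPM scaled for length and depth, and an FPKM that was not used. A library's deposited TPM summed to 956737 to 960729 over these rows, so some transcripts are not analysed here.

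Transcripts were summed per gene and rounded to whole counts. With edgeR 4.0.16, genes were kept by filterByExpr (at least 10 reads, total of at least 15), libraries were scaled by TMM, and all 9 entered 1 quasi-likelihood fit (robust, 6 residual degrees of freedom) in R 4.3.3. Adjustment was by Benjamini-Hochberg over the 14694 genes, threshold 0.05. SE came from the F statistic. The 3 animals per group set the precision, and dissection is part of their spread. Log2 CPM used a prior count of 2. Alternatives used DESeq2 1.42.0, limma 3.58.1 (voom, and log2 of the deposited TPM plus 1 or 0.1), other scalings, covariates and each library left out. The test was checked on simulated counts in which 200 genes were changed. The changes were larger than those of the members and every gene had the same dispersion, so this check does not measure power for the members.

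Replicates were numbered in accession order. The members and the gene lists were chosen with earlier results of these data known. Outside the members, genes were named from the up to 3 of each other striatal list with the smallest p among the 3 groups. Slc35d3, Isl1, Gpr52, Sp9, Bcl11b, Rgs7bp, Pde2a and Adora3 also fell under this rule and are not described. The 10 genes most like the members and each member's best match were named too. Of the marker lists, Neurod6, Doc2g, Hcrt, Hoxd3 and Cbln1 were not analysed here. Names, coordinates and sequences are from RefSeq on GRCm38.p6, and transcript lengths from GENCODE.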

Additional observations from a re-analysis of the deposited data

How the results depend on the processing

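No member passed an adjusted p of 0.05 in any of 19 alternative settings of a comparison. The smallest adjusted p of a member over them was 0.0897, for Tac1 in enriched against control mice. In the main fit the edgeR adjusted p of that result was 0.397, and the largest over the settings was 0.888. Direction held in all 19 settings for 6 of 27 results: Penk and Ppp1r1b in stress against control, and Penk, Gpr6, Ppp1r1b and Pde10a in enriched against control. No paired analysis was possible because the labels give no replicate numbers shared by the groups.

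Over all genes, edgeR called 0 in each comparison. DESeq2 called 7 for stress against control, 40 for enriched against control and 29 for any difference among the groups. With the first letter of the code as covariate, which varies within the controls alone, 3, 1 and 2 were called for stress against control, stress against enriched and any difference. Leaving out 1 library gave 0 to 1586 for enriched against control (1586 without control replicate 3, 33 without enriched replicate 2), 0 to 2 for stress against enriched and 0 to 21 for any difference, the highest of both without enriched replicate 2.

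The following log2 fold changes turned in sign. With the letter, the fit in effect sets stress mice against control replicate 1 alone and enriched mice against control replicates 2 and 3. Beyond that, the cause was not tested. With the letter, stress against control was 0.25 for Drd1, 0.12 for Adora2a, 0.71 for Gpr6 and 0.035 for Rgs9, Adora2a was -0.030 in enriched against control, and stress against enriched was 1.11 for Drd1, 0.15 for Adora2a, 1.67 for Gpr6, 0.82 for Rgs9 and 0.42 for Pde10a. With the first component of the region marker lists as a covariate, Tac1 and Drd2 were 0.36 and 0.45 in stress against control, 0.46 and 0.97 in enriched against control, and -0.10 and -0.51 in stress against enriched, while Drd1 and Rgs9 were 0.28 and 0.27 in enriched against control. That component was lowest in control replicate 2 and ran partly with the group, so the fit cannot fully separate them. The TPM scale shifted the median of all genes to 0.12, 0.16 and -0.04 in the 3 comparisons with a pseudocount of 1 and to 0.14, 0.19 and -0.04 with 0.1. On it Drd2 was 0.056 and 0.10 in enriched against control and -0.25 and -0.38 in stress against enriched, and Rgs9 was 0.016 and 0.018 in stress against enriched. By limma-voom, stress against enriched was -0.35 for Drd2 and 0.00049 for Penk.

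Without 1 library in turn, stress against control ran from -0.84 to 0.29 for Tac1, -1.27 to 0.49 for Drd2, -0.80 to 0.20 for Adora2a, -0.83 to 0.012 for Rgs9 and -0.031 to 0.34 for Pde10a. Enriched against control ran from -0.88 to 0.27 for Drd1, -0.79 to 0.39 for Drd2, -0.075 to 0.93 for Adora2a and -0.80 to 0.056 for Rgs9. Stress against enriched ran from -0.059 to 0.82 for Tac1, -0.89 to 0.56 for Drd2, -0.20 to 0.26 for Penk, -0.20 to 0.034 for Gpr6, -0.22 to 0.36 for Ppp1r1b and -0.15 to 0.13 for Rgs9. At 8 to 33 reads for Gpr6 and 31 to 144 for Drd1, counting error adds to the spread between animals.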
